A study of Xenopus laevis with 28 samples.

Results

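Forkhead (Fox) proteins are transcription factors that share a winged-helix DNA-binding domain, and a letter names each subfamily. In vertebrates the FoxA proteins open chromatin in endoderm, FoxJ1 switches on the genes of motile cilia, FoxI1 specifies ion-transporting cells, FoxM1 drives genes of mitosis, and FoxO proteins move between nucleus and cytoplasm in response to insulin and stress. Other subfamilies pattern the lens, the vessels and the mesenchyme of lung and gut, or are supplied by the egg. The gene models described here are the rows of the deposited table whose symbol begins with fox, a letter and a digit. There were 72 of them among 45831 models, and they carried 39 different symbols. 5 further rows with fox names were left out by the choice of members.

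The data are poly-A RNA-seq libraries of 14 adult organs of J strain Xenopus laevis, an inbred line of the African clawed frog. This species is allotetraploid, and most genes have a copy on a long (L) and a copy on a short (S) chromosome set. Brain, eye, heart, intestine, kidney, liver, lung, muscle, ovary, pancreas, skin, spleen, stomach and testis each had 2 libraries, 28 in all, with no treatment in any of them. The libraries called replicate 1 belong to the Taira clutch and those called replicate 2 to the Ueno clutch. A single female per clutch gave the 13 tissues other than testis, and the testes came from 2 male siblings, so each tissue rests on 2 animals. Clutch, donor and dataset cannot be told apart. The ages of the frogs are not given in the sources used here. Values are TPM (transcripts per 1e6 transcripts), which the authors corrected for transcript length. Pairs of values give the Taira library before the Ueno library.

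The labelled tissues carried their defining markers: each tested marker of a tissue was called higher there, except 1 of 6 in intestine, though kidney and pancreas had only 1 tested marker each. TPM keeps no read depth (the library sums were 999999 to 1000001), so the depth is unknown and no counting interval can be given. Kidney held genes of oocytes, with 19 of 22 tested models of an oocyte list called higher there and a summed level of 576.5 and 617.7 TPM, against 9842 and 13060 TPM in ovary. Eye held genes of keratinocytes (13 of 18 called higher, 6432 and 1772 TPM) and of skeletal muscle (12 of 12 called higher, 3243 and 1692 TPM). Genes of erythrocytes were called higher in lung (8 of 9 tested models), spleen (8 of 9), heart (8 of 9), liver (7 of 9) and kidney (3 of 9). In whole tissue, fewer cells of a type and less RNA per cell cannot be told apart.

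Of the 72 forkhead models, 35 were L copies, 36 were S copies, and foxp3.1 carried no copy letter. Listed at 0 in every library were 2 of them, foxa4.L and foxd4l1.2.L, whose relatives act in the organizer and the early neural plate of the frog embryo. Among all 45831 models 5050 were at 0 in every library. 10 models stayed under 1 TPM in every library, a count not made over all models. These 10 were foxa4.L, foxa4.S, foxb2.S, foxd4l1.1.L, foxd4l1.1.S, foxd4l1.2.L, foxe1.S, foxi4.2.S, foxo4.S and foxp3.S. The minimum for testing, at least 1 TPM in at least 2 libraries, was passed by 58. Of these, 6 passed only through the libraries of 1 tissue, among them both copies of foxb1 and of foxe3, so they had to differ between tissues. 5 reached 1 TPM in at least 1 library of every tissue (foxj2.S, foxk2.L, foxk2.S, foxn1.S and foxo3.S), also a count not made over all models.

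The forkhead models were as a group low and restricted in range. The highest tissue mean of the median tested forkhead model was 14.7 TPM, against 29.4 TPM over all tested models. The tissue of highest expression held a median of 41.6% of a forkhead model's summed tissue means, against 33.7% over all tested models. That share was above 50% in 26 of 58 forkhead models (44.8%), and in 31.1% of all tested models. Only foxk2.L, foxk2.S and foxn1.S reached 1 TPM in both libraries of all 14 tissues (5.17% of the tested forkhead models, against 20.9% of all). In limma's F test on log2(TPM + 1), 57 of 58 forkhead models differed between tissues at a Benjamini-Hochberg adjusted p under 0.05, where 83.5% of all tested models did. The 57 include the 6 that passed the minimum only through 1 tissue and so had to differ. The exception was foxd2.S (adjusted p = 0.207), which is described with intestine.

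**Figure D1:**
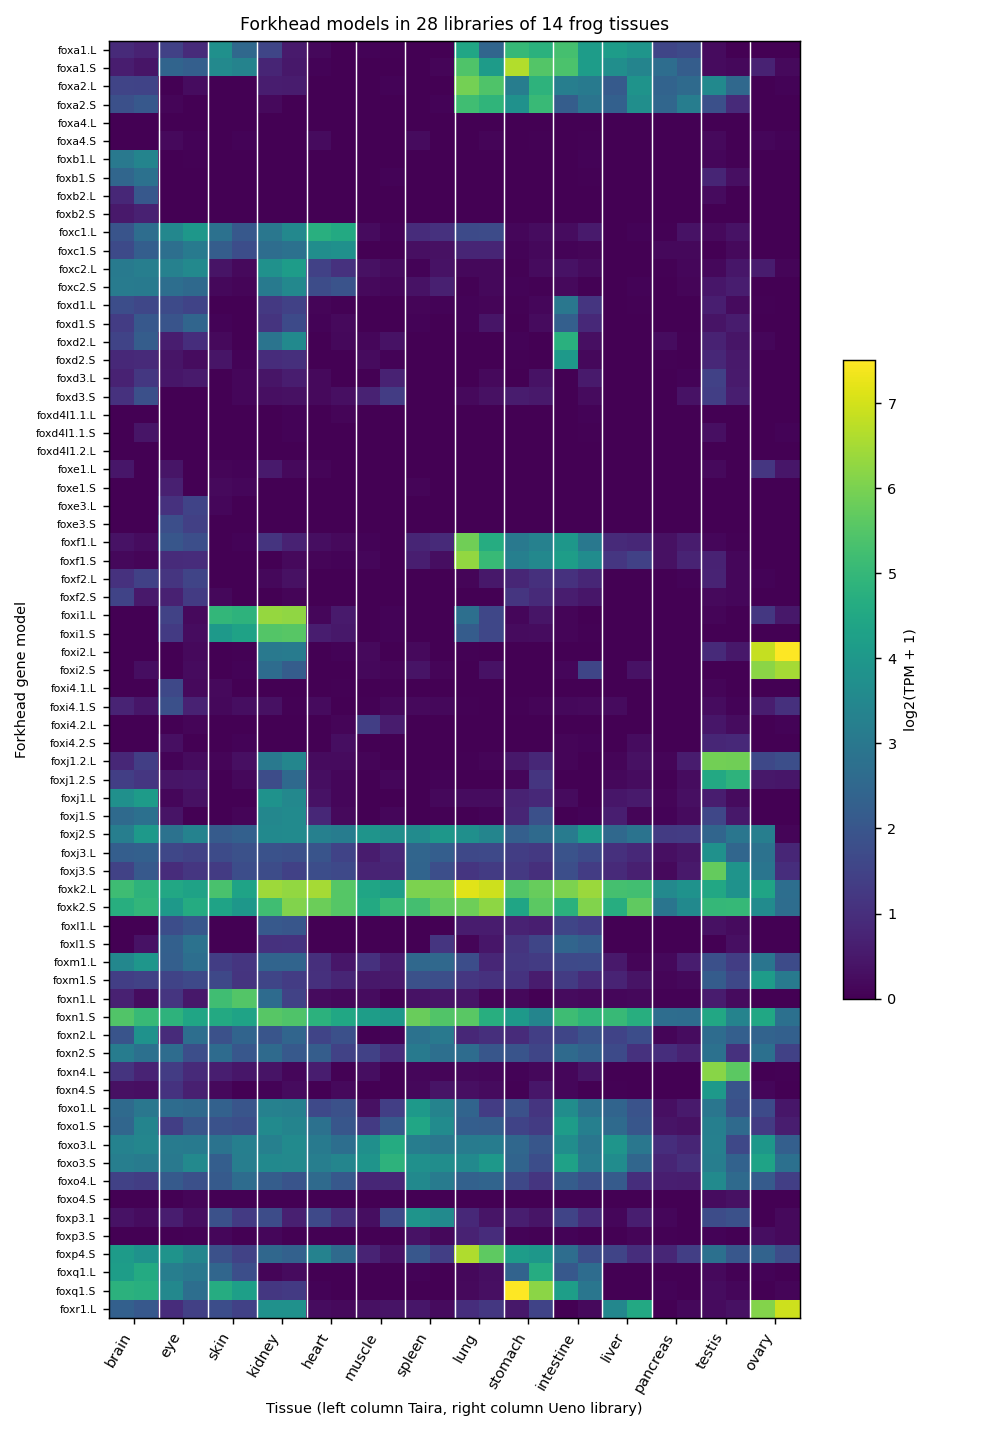
Each row is 1 of 70 forkhead models and each column 1 of the 28 libraries, with the Taira library on the left within each tissue; colour is log2(TPM + 1). Most rows are bright in 1 or a few tissues, foxk2 and foxn1.S are bright across the columns, and 10 rows stay under 1 TPM throughout.

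For each tissue, a model was called higher or lower when its limma difference from the mean of the other 13 tissues was at least 1 in size on the log2(TPM + 1) scale at an adjusted p under 0.05. This scale understates the change of low genes. Of the 58 tested models, 54 were called higher in at least 1 tissue, as were 85.3% of all tested models. In exactly 1 tissue 20 were called higher. That share was not computed over all models, so the 20 cannot be set against it. The 54 include the 6 that passed the minimum only through 1 tissue and had to be high there. TPM is a share, so a tissue with a few very abundant transcripts lowers all others. The median of all tested models lay at -1.33 in pancreas, -0.67 in liver, -0.66 in muscle, -0.50 in stomach, -0.23 in ovary, 0.16 in spleen, 0.22 in eye, 0.40 in kidney and 0.72 in brain. After median-of-ratios scaling of the libraries these medians lay between -0.36 in ovary and -0.10 in eye. Of the 247 forkhead calls over the 14 tissues, 69 were lost after that scaling and 7 of the 69 changed sign, all of them in pancreas. The scaled counts are given beside the counts of each tissue, with the shares of all models after scaling.

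**Figure D2:**
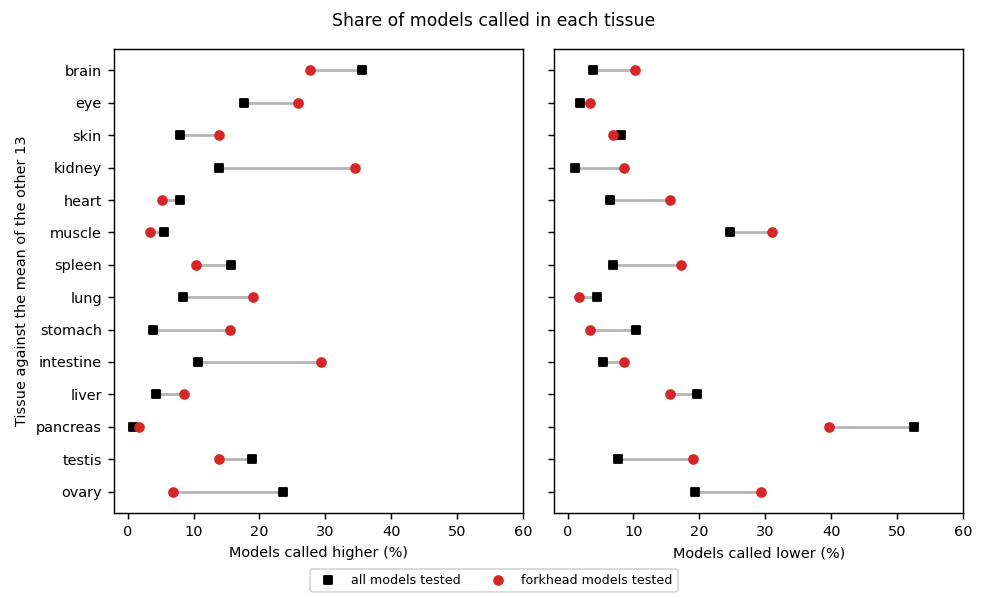
The share of tested models called higher (left) and called lower (right) in percent, for each tissue set against the other 13, for the 58 forkhead models (circles) and all 33317 models (squares). Forkhead shares called higher lie to the right of the squares in kidney, intestine, lung, stomach, eye, skin, liver and pancreas. They lie to the left in ovary, brain, spleen, testis, heart and muscle. After median-of-ratios scaling 11 of the 58 forkhead models were called higher in brain, where 17.9% of all models were. The place of brain to the left thus depends on how the libraries are scaled, and the intestine share rested on the Taira library.

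In brain the copies of foxb1, whose mouse counterpart marks the hypothalamus and mammillary body, were high and nearly absent elsewhere. The TPM of foxb1.L was 7.26 and 9.54 in brain and at most 0.09 in any other library, in testis. For foxb1.S it was 4.56 and 5.93 in brain and at most 0.71 elsewhere, again in testis. Neither copy overlapped between brain and any other tissue. The differences were 3.21 ± 0.09 (SE) for the L copy and 2.59 ± 0.10 for the S copy. Both passed the minimum through brain alone, so they had to be high there, and these values are a description with no test.

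Altogether 16 of 58 forkhead models were called higher in brain, where 35.5% of all models were, and 6 were called lower, where 3.89% were. The 16 include the models that passed the minimum through brain alone and had to be high there, among them both foxb1 copies. After scaling the counts were 11 and 7, where 17.9% and 9.95% of all models were called. The 16 included both copies of foxd1, whose calls were lost after scaling, besides the foxb1 copies and both copies of foxq1 and foxc2. They also included foxj1, the regulator of motile cilia, with 12.7 and 16.3 TPM for foxj1.L (3.44 ± 0.15, adjusted p = 8.39e-13) and 5.02 and 5.86 TPM for foxj1.S (2.12 ± 0.25, adjusted p = 1.51e-06). Brain was also where foxm1.L was highest, at 10.2 and 14.4 TPM (2.24 ± 0.30, adjusted p = 6.1e-06). FoxM1 is known as the driver of mitotic genes, yet of 26 tested models in the list of mitotic genes 1 was called higher in brain and 12 lower. The 3 most abundant there were cdc25b.L (23.4 TPM), a phosphatase that starts mitosis, ube2c.L (10.2 TPM), which helps destroy cyclins, and lin9.L (9.99 TPM), a partner of FoxM1.

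In eye the models with the narrowest range were those of foxe3, which maintains the lens epithelium. The S copy had 2.49 and 1.70 TPM in eye and was at 0 in all 26 other libraries, while the L copy had 1.1 and 1.87 TPM in eye and at most 0.09 elsewhere, in skin. Both were low in absolute terms and passed the minimum through eye alone, so their differences, 1.62 ± 0.08 for the S copy and 1.29 ± 0.09 for the L copy, are given as a description with no test. With a pseudocount of 5 these differences were 0.50 and 0.37. Lens genes were abundant in the same libraries. Of 25 tested models of the lens list 23 were called higher in eye, with a median difference of 7.36 against 0.22 over all models, and the crystallins crybb2.S, crybb2.L and crybb3.L reached 29510, 26330 and 9051 TPM.

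Of the 58 forkhead models 15 were called higher in eye, where 17.7% of all models were, and 2 lower, where 1.85% were. The 15 include both foxe3 copies, which passed the minimum through eye alone and had to be high there. Under scaling the counts were 10 and 4, where 13.4% and 3.54% of all models were called. The largest of these differences belonged to foxc2 and foxc1, whose mouse counterparts shape the anterior segment of the eye and the vessels. Both libraries of eye held foxc1.L at 10.01 and 14.7 TPM and foxc2.L at 8.83 and 10.5 TPM. Eye was also the tissue where foxl1.S, a factor of gut mesenchyme in mouse, was highest, at 3.90 and 6.04 TPM (2.09 ± 0.21, adjusted p = 3.51e-07), although one intestine library (4.51 TPM) lay within this range and with a pseudocount of 5 the difference was 0.85 and not called. The 2 models called lower in eye were the copies of foxa2, and without eye replicate 1 the count was 1.

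The direct comparison of brain with eye concerned 2 organs that hold neural tissue, though the eye libraries also held genes of lens, keratinocytes and skeletal muscle. Here 10 forkhead models were called higher in brain, where 15.5% of all models were, and 7 were higher in eye, where 6.46% were. The 10 include both foxb1 copies, which passed the minimum through brain alone, and the 7 both foxe3 copies, which passed through eye alone. Scaling changed the counts to 7 and 7, where 9.03% and 7.7% of all models were called. Among those higher in brain were foxj1.L (3.71 ± 0.20, adjusted p = 7.49e-11) and foxj1.S (2.49 ± 0.34, adjusted p = 1.94e-05). In the other direction the largest differences were those of foxl1.S (-2.38, adjusted p = 4.16e-06), foxl1.L (-1.91, adjusted p = 4.51e-09) and foxa1.S (-1.85, adjusted p = 0.00607), of which foxa1.S had 4.40 and 3.86 TPM in eye and 0.51 and 0.34 TPM in brain. With a pseudocount of 5 none of these 3 was called. Since foxa1.S was also present in skin (10.7 and 9.33 TPM), and keratinocyte genes were high in the eye libraries, the part of surface epithelium in this value was not tested.

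**Figure D3:**
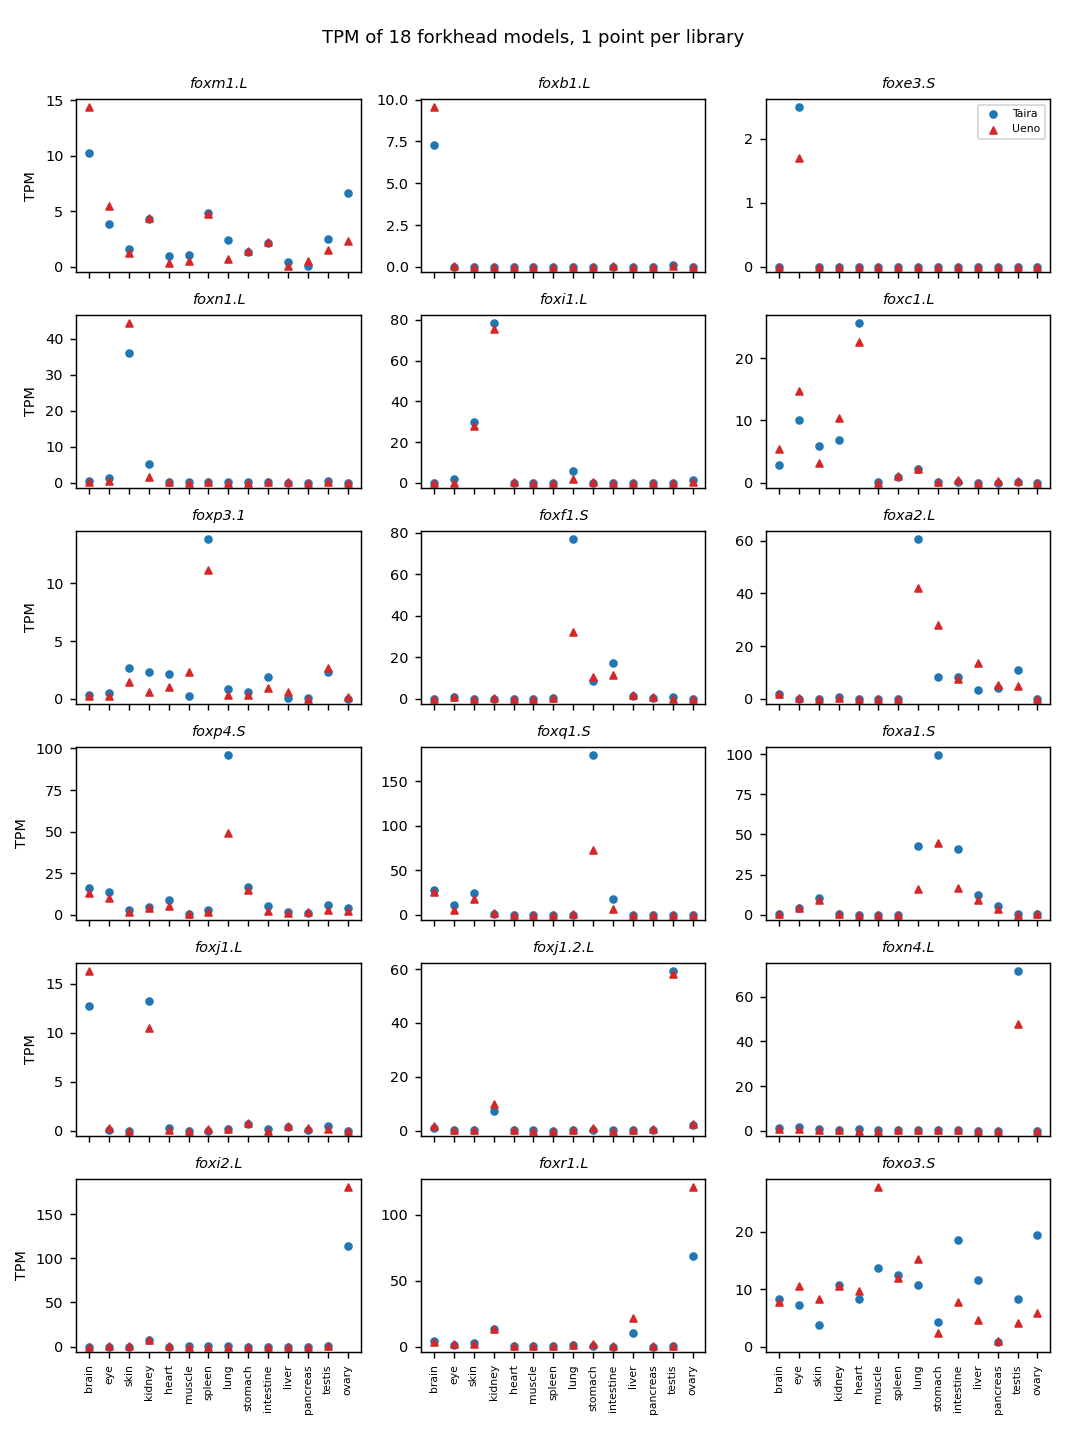
TPM of 18 forkhead models on linear axes that start at 0, with 1 point per library (circles Taira, triangles Ueno) and the 14 tissues along the horizontal axis. The 2 libraries of the top tissue lie above every other library in each panel except foxo3.S and foxj1.L.

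In heart the FoxC1 copies were highest. The TPM of foxc1.L was 25.6 and 22.5 and that of foxc1.S was 11.9 and 12.6, each above every library of the other tissues (next came eye). The differences were 3.44 ± 0.24 (adjusted p = 7.37e-09) and 2.86 ± 0.17 (adjusted p = 1.03e-09). With foxc2.S (2.36 and 2.76 TPM, difference 1.005), these made 3 of 58 forkhead models called higher in heart, where 7.96% of all models were. The 9 called lower, where 6.4% of all models were, included both copies of foxa1, foxa2, foxf1 and foxq1. After scaling the counts were 3 and 8, where 7.8% and 6.48% of all models were called. The order of tissues for foxc1.L was heart, eye, kidney, skin, brain and lung, and all other tissues were at or below 1.08 TPM in each library. Eye and kidney overlapped in this order, as did skin and brain. In the list of vessel and mesenchyme genes 6 of 27 tested models were called higher in heart, with a median difference of 0.48, led by col1a2.L (488.9 TPM) and col1a2.S (66.7 TPM), which code for a collagen chain, and egfl7.S (49.0 TPM), an endothelial protein. In each of brain, eye and kidney 6 were called higher too, and 10 were in spleen (median 0.95), where foxc1.L was near 1 TPM. Of all models 7.96% were called higher in heart, 35.5% in brain, 17.7% in eye, 13.9% in kidney and 15.7% in spleen.

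Lung and gut, the organs of endoderm and its mesenchyme, held FoxA and FoxF together. In lung foxf1.S, a hedgehog target of gut and lung mesenchyme, had 76.97 and 32 TPM, and foxf1.L had 58.1 and 23.9 TPM. Every other library had at most 17.2 TPM of foxf1.S, in intestine. The differences were 4.79 ± 0.25 for the S copy (adjusted p = 8.05e-10) and 4.31 ± 0.26 for the L copy (adjusted p = 4.37e-09), and the Taira library was the higher in both. FoxA2, a pioneer factor of endodermal epithelium, was highest in lung as well, with 60.6 and 42.1 TPM for foxa2.L (4.30 ± 0.38, adjusted p = 4.2e-07) and 36.1 and 29.1 TPM for foxa2.S. For foxa2.S one stomach library (32.9 TPM) lay within the lung values.

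Lung also had the highest level of foxp4.S, which helps to shape the airway epithelium in mouse, at 96.1 and 49.3 TPM against at most 16.9 TPM elsewhere (3.81 ± 0.33, adjusted p = 3.11e-07). The broadly expressed foxk2.L reached 142 and 120.5 TPM there (2.01 ± 0.34, adjusted p = 0.000433). Altogether 11 forkhead models were called higher in lung, where 8.4% of all models were, and 1 was called lower (foxq1.S), where 4.51% were. After scaling the counts were 8 and 1, where 6.89% and 5.07% of all models were called. Without lung replicate 1 the count of higher models was 7. The single lower call became 2 without brain replicate 1, intestine replicate 1, kidney replicate 1, lung replicate 2, pancreas replicate 1 or skin replicate 2, and 3 without stomach replicate 1. Of 27 tested vessel and mesenchyme models 11 were called higher in lung, with a median difference of 1.60 against -0.08 over all models. Erythrocyte genes summed to 84170 and 66620 TPM in lung, and their part in these levels was not tested.

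Stomach was led by foxq1.S, whose mouse counterpart controls mucin production in gastric surface cells. Its TPM was 179.6 and 73.0 in stomach, with brain, skin and intestine next at 6.74 to 27.2 TPM (difference 5.49 ± 0.31, adjusted p = 5.24e-10). Both stomach libraries were above all others. FoxA1, the other pioneer factor of endoderm, was also highest there, with 99.5 and 44.6 TPM for foxa1.S (4.29 ± 0.34, adjusted p = 8.35e-08). The L copy had 31.7 and 26.9 TPM in stomach and 38.1 and 16.6 TPM in intestine, so that the 2 organs overlapped. Altogether 9 forkhead models were called higher in stomach, where 3.88% of all models were, namely both copies of foxa1, foxa2, foxf1 and foxq1, and foxp4.S. The 2 called lower, where 10.4% of all models were, were the copies of foxc1. After scaling 13 were higher and 1 lower, where 6.62% and 3.49% of all models were. Without brain replicate 2 or stomach replicate 1 the count of lower models was 1. Of 28 tested models in the list of FoxA partners and targets 5 were called higher in stomach. The median of the list there was -0.57 against -0.50 over all models. The most abundant were gata6.S (94.3 TPM), gata6.L (46.1 TPM) and gata4.L (11.3 TPM), which code for endodermal GATA factors. Heart, with both copies of foxa1 and foxa2 called lower, held more gata6.S (129.4 TPM) and gata4.L (39.7 TPM). In lung 4 of the 28 were called higher and 7 lower, with a median of -0.75 against -0.08 over all models.

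In intestine 17 forkhead models were called higher, where 10.7% of all models were, and 5 were called lower, where 5.31% were. After scaling the counts were 14 and 3, where 10.4% and 5.45% of all models were called. The count of higher models rested on 1 library: it was 7 without intestine replicate 1, and the count of lower models was 3 without intestine replicate 1 or intestine replicate 2. Among those called higher were foxa1.L (38.1 and 16.6 TPM, 3.14 ± 0.40, adjusted p = 1.28e-05) and foxf1.S (17.2 and 11.7 TPM, 2.91 ± 0.25, adjusted p = 8.48e-08). The library that stood apart was clearest in foxd2, a factor of mesenchyme. The TPM of foxd2.L in intestine was 26.03 in the Taira and 0.24 in the Ueno library, and that of foxd2.S was 15.5 and 0.12, the 2 widest gaps on the log2 scale between replicates of any forkhead model. The same library also held more foxd1.L (6.84 against 1.22 TPM) and foxd1.S (3.84 against 0.82 TPM). The difference of foxd2.L was 1.99 ± 0.59 (adjusted p = 0.02) with both libraries and -0.24 (adjusted p = 0.636) without intestine replicate 1, and its adjusted p over the alternatives ran from 2.52e-09 to 0.636. In kidney foxd2.L had 6.36 and 10.8 TPM (2.73 ± 0.59, adjusted p = 0.0024). In the list of FoxA partners and targets 19 of 28 tested models were called higher in intestine and 13 in liver, with medians of 2.60 and 0.89, and 11 were in kidney, with a median of -0.44.

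Stomach and intestine were also compared directly. In stomach 4 models were called higher, where 1.63% of all models were. These were foxq1.S (3.28 ± 0.42, adjusted p = 1.83e-05), foxa2.S (1.89 ± 0.46, adjusted p = 0.0111), foxp4.S (1.82 ± 0.44, adjusted p = 0.0104) and foxj1.S. In intestine 4 were higher, where 7.98% of all models were, namely the copies of foxo1 and foxd1. The differences were -2.29 for foxo1.S (adjusted p = 0.00231), -1.98 for foxd1.L (adjusted p = 0.000656) and -1.75 for foxo1.L (adjusted p = 0.0398). Scaling gave 6 and 3, where 3.1% and 5.59% of all models were called, and foxo1.L was no longer called. With the frog as a block the intestine count was 7. Of these calls foxq1.S and foxd1.L were kept without each of the 4 libraries in turn, and foxa2.S, foxp4.S, foxo1.S and foxo1.L each lost the call without at least 1 of them. With a pseudocount of 0.1 foxa2.S and foxo1.L, and with one of 5 foxd1.L and foxo1.L, were not called. The count for stomach was 2 without intestine replicate 2 or stomach replicate 2. The count for intestine was 2 without intestine replicate 1 or stomach replicate 1, and 7 without intestine replicate 2 or either ovary replicate.

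In liver the 5 models called higher, where 4.23% of all models were, were both copies of foxa1 and foxa2 and foxr1.L. The TPM of foxa1.L in liver was 16.6 and 13.97 (2.39 ± 0.40, adjusted p = 0.000297) and that of foxa2.S was 3.91 and 12.0 (1.58 ± 0.34, adjusted p = 0.00205). FoxA factors are known as regulators of liver genes, and fgb.L (3367 TPM), f2.L (1283 TPM) and f2.S (914.8 TPM), which code for clotting proteins, were the most abundant of their list there. A further 9 forkhead models were called lower, where 19.6% of all models were. After scaling the counts were 8 and 5, where 8.74% and 8.05% of all models were called. Without liver replicate 2 the counts were 3 and 5. In pancreas 1 forkhead model was called higher, where 0.825% of all models were, and 23 lower, where 52.6% were. The 1 was foxa2.S (4.52 and 8.16 TPM, 1.40 ± 0.34, adjusted p = 0.00192), which lost its call without pancreas replicate 2. After scaling 4 were higher (foxa1.L, foxa1.S, foxa2.L and foxa2.S) and 2 lower, where 4.74% and 3.99% of all models were. The pancreas count thus depends on how the libraries are scaled. The summed forkhead TPM was lowest in pancreas, at 46.8 and 60.1, and its mean was highest in lung, at 709.4 and 482.7. Lung overlaps with kidney (486.8 and 513.4) and stomach (485.2 and 410.6).

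In kidney 20 of 58 forkhead models were called higher, where 13.9% of all models were, and 5 called lower, where 1.08% were. The scaled counts were 14 and 5, where 7.29% and 1.78% of all models were called, and intestine then also had 14 higher. The count of 20 was above that of every other tissue, but with a pseudocount of 0.1 brain had 28 against 22 in kidney, and with one of 5 both had 10. Both foxi2 copies, described with ovary, are among the 20. Their kidney means were 5.09% (L) and 5.56% (S) of their ovary means, and the part of oocyte RNA in them was not tested. The lower calls were 2 without kidney replicate 1 and 1 without kidney replicate 2. The largest differences were those of foxi1, which specifies the acid- and base-secreting intercalated cells of the mammalian kidney and the ionocytes of frog skin. Kidney held 78.4 and 75.4 TPM of foxi1.L (5.55 ± 0.28, adjusted p = 6.15e-11) and 44.5 and 46.3 TPM of foxi1.S (4.94 ± 0.20, adjusted p = 2e-12). Skin followed with 30.1 and 27.97 TPM of foxi1.L and 15.8 and 19.1 TPM of foxi1.S, and lung with 5.73 and 2.03, and 3.52 and 2.02 TPM. Kidney, skin and lung did not overlap in either copy. Eye and ovary each reached 1 TPM of foxi1.L in the Taira library alone, at 1.79 and 1.33 TPM, and the other 9 tissues stayed at or below 0.47 TPM.

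Genes of ionocytes were mostly called higher in kidney and mostly not in skin. Of 10 tested models of the ionocyte list 8 were called higher in kidney, with a median difference of 4.53 against 0.40 over all models, and 1 was called higher in skin, with a median of -0.71 against -0.17. Their summed level was 1154 and 1238 TPM in kidney and 46.1 and 33.0 TPM in skin. The most abundant in kidney were the carbonic anhydrase copies ca2.L (258.7 TPM) and ca2.S (235.2 TPM) and the ammonia channel rhcg.S (234.0 TPM), while skin had 9.03 TPM of ca2.L and 7.15 TPM of ca2.S. For ca2.L the means of stomach (820 TPM), eye (396.5 TPM) and intestine (261.2 TPM) were above that of kidney. In stomach, with at most 0.33 TPM of foxi1.L, the list summed to 1602 and 285.6 TPM. Of dmrt2.L, also in the list, kidney had 39.8 TPM, lung 7.39 TPM, skin 3.99 TPM and other tissues at most 0.72 TPM. The list held 6 of its 14 symbols in the table.

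Other kidney models were foxc2, foxj1 and foxd2. The TPM of foxc2.L, known from podocytes and lymphatic vessels, was 12.96 and 16.6 in kidney, above every other library (3.21 ± 0.17, adjusted p = 1.15e-10), with eye next at 8.83 and 10.5. The copies of foxj1 had 13.3 and 10.5 TPM (foxj1.L) and 10.1 and 11.1 TPM (foxj1.S). Kidney and brain overlapped for foxj1.L, and kidney was above brain in both libraries for foxj1.S. Of 21 tested models in the list of motile cilia genes 12 were called higher in kidney and 8 in brain. The medians were 1.68 and 1.02 against 0.40 and 0.72 over all models, of which 13.9% were called higher in kidney and 35.5% in brain. In ovary, where foxj1.L and foxj1.S were at 0 TPM, 7 of the 21 were called higher (median 0.55), where 23.6% of all models were. The other FoxJ1 gene, foxj1.2, described with testis, was present in ovary. Its L copy had 2.12 and 2.49 TPM there and its S copy 0.41 and 0.36 TPM.

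In skin the model with the largest difference was foxn1.L, whose mouse counterpart acts in the keratinocytes of hair and in thymic epithelium. It had 36.0 and 44.4 TPM in skin, 5.14 and 1.77 TPM in kidney and at most 1.25 TPM in every other library (4.95 ± 0.22, adjusted p = 1.18e-11). Skin was also the second tissue of foxi1 and held foxq1.S at 24.1 and 18 TPM (2.90 ± 0.31, adjusted p = 1.45e-06). Altogether 8 forkhead models were called higher in skin, where 7.88% of all models were (8.55% after scaling). Another 4 were called lower, where 8.07% were (7.79% after scaling). After scaling the counts were 8 and 5, and without skin replicate 1 the count of higher models was 4. The 4 called lower were both copies of foxa2 and foxf1, all at or below 0.06 TPM in skin.

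Ovary held 4 forkhead models called higher, where 23.6% of all models were (17.7% after scaling). It held 17 called lower, where 19.4% were (24.1% after scaling). Scaling changed the counts to 4 and 16, and without ovary replicate 2 the count of higher models was 7. The first was foxi2, known in Xenopus as a maternal factor that activates ectodermal genes in the embryo. In ovary foxi2.L had 114.0 and 180.9 TPM (6.86 ± 0.16, adjusted p = 2.63e-15) and foxi2.S 72.2 and 88.7 TPM (6.01 ± 0.24, adjusted p = 1.39e-12). Next was foxr1.L, whose zebrafish counterpart is needed in the egg, with 68.9 and 121.1 TPM (5.28 ± 0.28, adjusted p = 7.9e-11). The fourth was foxm1.S with 16.8 and 7.42 TPM (2.47 ± 0.25, adjusted p = 2.65e-07). Each of the 4 was above every library of the other tissues. Mitotic genes were high in ovary, where 23 of 26 tested models of that list were called higher, with a median difference of 5.94, led by ube2c.L (2413 TPM) and the cyclin copies ccnb2.S (1088 TPM) and ccnb2.L (1067 TPM). In kidney 16 of these 26 were called higher and in testis 20, where 13.9% and 18.8% of all models were. The part of oocyte RNA in the kidney levels of these mitotic genes was not tested.

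Kidney followed ovary for foxi2, with 7.25 and 7.77 TPM of foxi2.L and 5.30 and 3.64 TPM of foxi2.S, and both were called higher in kidney as well. The kidney mean was 5.09% of the ovary mean for foxi2.L and 5.56% for foxi2.S. For the 22 models of the oocyte list with at least 1 TPM in ovary this share ran from 2.74% to 11.6%, with a median of 5.83%. Both foxi2 shares lie within that range, and that of foxr1.L (13.7%) and that of foxm1.S (14.2%) lie above it. The mean of foxm1.S was 1.72 TPM in kidney, 1.71 TPM in brain and 2.59 TPM in spleen. Its kidney level was thus near or below that of other tissues, and its share is not comparable with the range of the list. The part of oocyte RNA in the kidney values was not tested. Leaving kidney out of the other tissues gave differences in ovary of 7.09 for foxi2.L, 6.18 for foxi2.S and 5.49 for foxr1.L, and the same number of higher calls, an alternative chosen after seeing the data. For foxr1.L liver (10.2 and 21.9 TPM) and kidney (12.99 and 12.95 TPM) came next after ovary and overlapped. It was called higher in liver (2.56 ± 0.28, adjusted p = 4.09e-06), where no model of the oocyte list was called higher and the list summed to 4.91 and 11.01 TPM.

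In testis the largest difference was that of foxn4.L, a factor of retinal progenitors and spinal interneurons in mouse and frog. It had 71.6 and 48.0 TPM in testis and at most 1.52 TPM elsewhere, in eye (5.59 ± 0.17, adjusted p = 4.84e-14), and foxn4.S had 15.3 and 2.90 TPM. A further FoxJ1 gene of the frog, foxj1.2, was close behind with 59.4 and 58.1 TPM for foxj1.2.L (5.28 ± 0.18, adjusted p = 1.76e-13) and 22.1 and 27.9 TPM for foxj1.2.S (4.25 ± 0.21, adjusted p = 3.36e-11). Kidney was the next tissue for both copies, with 7.28 and 9.81, and 2.37 and 4.97 TPM. The 2 FoxJ1 genes thus had different leading tissues: the level of foxj1.L was 0.52 and 0.17 TPM in testis, and foxj1.2.L had 0.79 and 1.60 TPM in brain. Genes of motile cilia were highest in testis, where 19 of 21 tested models of that list were called higher with a median difference of 3.92 against 0.01 over all models. The 3 most abundant code for tektins, proteins of the axoneme (tekt4.S 301.3, tekt3.L 219.9 and tekt3.S 160.8 TPM).

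Also called higher in testis were both copies of foxj3, known in mouse for activating a muscle regulator. The S copy had 52.1 and 13.9 TPM and the L copy 12.97 and 4.61 TPM, with the Taira library the higher in both. The L copy overlapped with ovary (6.14 TPM in replicate 1). Altogether 8 forkhead models were called higher in testis, where 18.8% of all models were (13.9% after scaling). Another 11 were called lower, where 7.58% were (13% after scaling). The scaled counts were 6 and 10, and without testis replicate 1 the count of higher models was 5. Set against ovary, 14 were higher in testis, where 14.7% of all models were (14.9% after scaling). In ovary 4 were higher, where 12.1% were (11% after scaling). After scaling they were 11 and 4, and without testis replicate 1 the count for testis was 9. The largest differences between the gonads were foxn4.L (5.88 ± 0.24, adjusted p = 2.95e-12), foxj1.2.S (4.22 ± 0.28, adjusted p = 3.09e-09) and foxj1.2.L (4.18 ± 0.24, adjusted p = 4.39e-10) towards testis. Towards ovary they were foxi2.L (-6.49, adjusted p = 2.56e-13), foxi2.S (-6.34, adjusted p = 7.64e-11) and foxr1.L (-6.25, adjusted p = 9.37e-10). Donor, sex and tissue cannot be told apart in this comparison.

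In spleen foxp3.1, the factor that defines regulatory T cells, was highest, at 13.8 and 11.1 TPM against at most 2.66 TPM in any other library (2.93 ± 0.31, adjusted p = 1.6e-06). The other foxp3 model, foxp3.S, missed the minimum, with 0.28 and 0.12 TPM in spleen and 0.64 and 0.94 TPM in lung. All 15 tested models of the regulatory T cell list were called higher in spleen, with a median difference of 3.82 against 0.16. They were led by the T cell receptor subunit copies cd3e.S (178.1 TPM) and cd3e.L (167.0 TPM) and by cd4.S (116.2 TPM). Other T cells carry cd3e and cd4 as well, so the list does not single out regulatory T cells, and their presence was not tested. The copies of foxo1, which keeps lymphocytes quiescent in mouse, were also called higher, at 20.6 and 11.3 TPM for foxo1.S (1.87 ± 0.34, adjusted p = 0.000408) and 15.4 and 9.22 TPM for foxo1.L. Intestine overlapped with spleen in both copies, at 16.9 and 8.45 TPM of foxo1.S and 11.8 and 6.03 TPM of foxo1.L. Altogether 6 were called higher, where 15.7% of all models were (10% after scaling). Another 10 were called lower, where 6.95% were (9.44% after scaling). Under scaling they were 3 and 10, and without spleen replicate 1 the count of higher models was 2. Erythrocyte genes summed to 40930 and 20840 TPM in spleen, and their part in these values was not tested.

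In muscle 2 models were called higher, where 5.58% of all models were, and 18 lower, where 24.6% were. After scaling the counts were 4 and 13, where 11.7% and 12.9% of all models were called. The 2 were the copies of foxo3, which promotes protein breakdown in mouse muscle. The TPM of foxo3.S in muscle was 13.8 and 27.9 (1.32 ± 0.41, adjusted p = 0.0164) and that of foxo3.L was 12.3 and 23.6 (1.29 ± 0.40, adjusted p = 0.0172). The values overlap with other tissues, since foxo3.S had 19.4 TPM in an ovary library and 18.6 TPM in an intestine library. With a pseudocount of 5 its difference was 0.96 and not called. Neither copy was called without muscle replicate 2, where the difference of foxo3.S was 0.83 (adjusted p = 0.304, with a range of 6e-05 to 0.304 over its alternatives). In the list of FoxO targets 7 of 33 tested models were called higher in muscle and 8 in spleen, with medians of -0.26 and 0.16 against -0.66 and 0.16 over all models. Kidney had the most, 9 (median 1.02 against 0.40), and heart had 7. Of all models 5.58% were called higher in muscle, 15.7% in spleen, 13.9% in kidney and 7.96% in heart. The most abundant FoxO list members in muscle were txnip.L (624.2 TPM), pdk4.L (359.9 TPM), which limits glucose oxidation, and bnip3.S (326.2 TPM), a mitophagy receptor.

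Among the broadly expressed models the L copy of foxk2 ranged from 5.51 TPM in an ovary library to 142 TPM in a lung library and the S copy from 5.37 to 74.5 TPM. For foxn1.S the range was 5.27 TPM in pancreas to 53.9 TPM in spleen. Whether that model holds only foxn1 exons was not checked here, so its levels, and the foxn1 ratios given next, are those of the model as named in the table. Each of these 3 stayed above 5 TPM in every library, and pancreas and an ovary library held their lowest values. For foxj2.S the values ran from 3.44 to 15.2 TPM outside pancreas (1.47 and 1.51) except for 0.07 TPM in ovary replicate 2, against 8.24 in ovary replicate 1.

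The L and S copies could be compared within libraries for 28 of 33 forkhead pairs, as the log2 ratio of (L + 1) to (S + 1) TPM. Averaged over tissues, 1 of the 28 pairs was called with L above S, where 15.6% of 7749 pairs were, and 1 with S above L, where 8.19% were. These were foxo4 (1.92 ± 0.07, adjusted p = 2.34e-14), whose S copy reached at most 0.26 TPM in any library and whose ratio was 0.70 and not called with a pseudocount of 5, and foxn1 (-3.76 ± 0.08, adjusted p = 5.98e-18), with the limit just given for its S model. The ratio differed between tissues in limma's F test for 22 of 28 pairs, as it did for 80.3% of all pairs. In 18 of the 26 pairs with both copies tested (69.2%) the L and S copies had the same top tissue, against 56.8% of 7119 pairs. The L and S copies resemble each other in sequence, and the authors' quantification may have split reads between them, so the value of a single copy is uncertain to that extent.

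**Figure D4:**
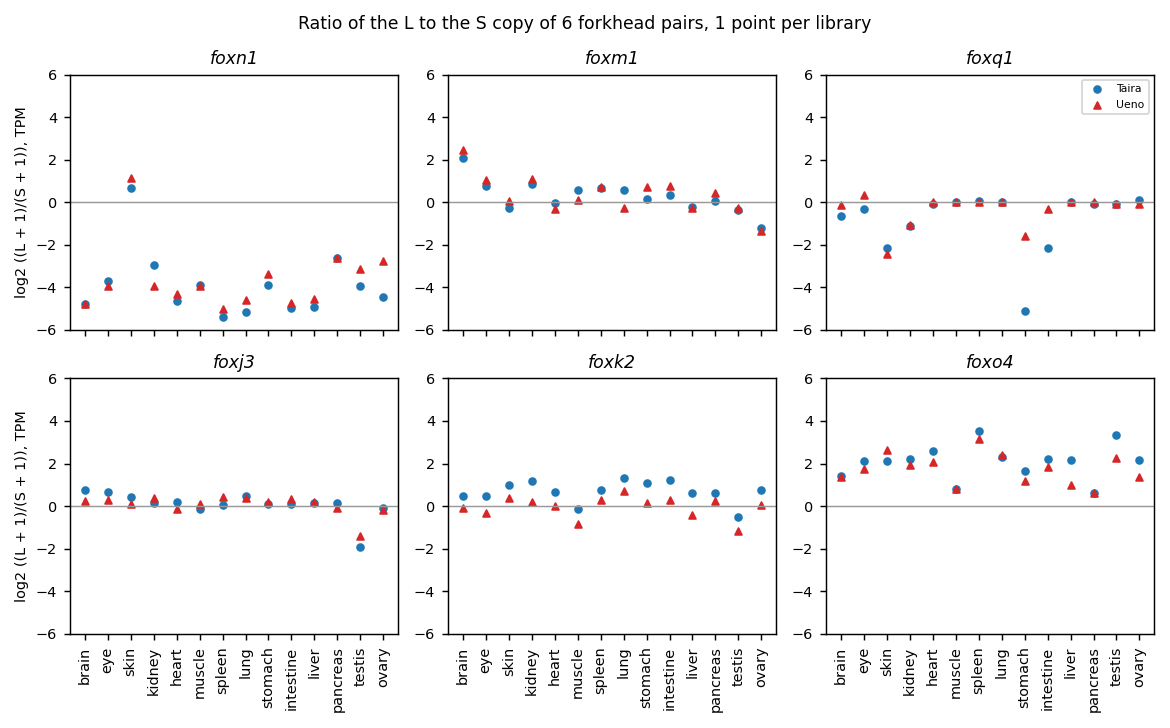
Log2 ratio of L to S (1 TPM added to each) for 6 forkhead pairs, with 1 point per library (circles Taira, triangles Ueno) and a line at equal level. Skin is the only tissue above the line for foxn1, brain and ovary are the extremes of foxm1, and testis is the lowest tissue of foxj3. For foxq1 stomach and skin have the lowest means, and intestine, kidney and brain also lie below the line in both libraries.

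The pair with the widest range of the ratio was foxn1, with the limit given above for its S model. In skin the L copy was the higher in both libraries (log2 ratios 0.66 and 1.14), and in each of the other 26 libraries the S copy was the higher, by -2.61 to -5.40. The L copy was nearly confined to skin, as given above, and the S copy was highest in spleen (53.9 and 43.0 TPM), kidney (45.8 and 42.1), brain (43.1 and 32.5) and lung (46.8 and 25.3), which overlap. For foxm1 the L copy was the higher in brain (2.09 and 2.46) and the S copy in ovary (-1.22 and -1.35). For foxq1 the S copy was the higher in stomach (-5.11 and -1.57) and in skin (-2.17 and -2.45), and brain was near equality (-0.63 and -0.15). The S copy of foxq1 was also the higher in both libraries of intestine (-2.145 and -0.30) and kidney (-1.115 and -1.048). The adjusted p of the F test was 1.49e-07 for foxn1, 4.56e-06 for foxm1 and 0.00425 for foxq1. Where neither copy is expressed, as for foxq1 in liver and muscle, the added 1 TPM sets the ratio near 0.

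The position of the genes could be read from the RefSeq annotation of the assembly Xenopus_laevis_v10.1, in which 67 of 72 symbols were found. The build differs from that of the table, so only the order of genes is used. On chromosomes 6L and 6S foxc1, foxf2 and foxq1 followed each other with 0 genes between them. Their leading tissues differed: heart for foxc1, eye or brain for foxf2 (at most 1.89 TPM), and stomach or brain for foxq1. On 4L and 4S foxc2 stood next to foxl1, and both were called higher in eye and kidney for the L copies. On the same chromosomes foxe3 stood next to foxd2, the former above 1 TPM in eye alone and foxd2.L above 1 TPM in kidney, brain (1.82 and 3.64 TPM) and 1 intestine library. On 1L and 1S foxi4.1 stood next to foxi4.2, and no library of either exceeded 2.58 TPM.

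Between the frogs, compared as Ueno minus Taira over 26 female libraries with tissue as a block, 0 forkhead models were called higher in Ueno, where 0.648% of all models were, and 0 in Taira, where 9.93% were. In limma's test 5 were higher in Ueno and 7 in Taira at an unadjusted p under 0.05, and 2 and 5 at an adjusted p under 0.05 with a size under 1. The smallest adjusted p belonged to foxn2.S, lower in Ueno in 13 of 13 tissues (-0.57 ± 0.10, adjusted p = 0.000772). Its L copy was higher in Ueno in 12 of 13 tissues (0.51 ± 0.17, adjusted p = 0.0249), as in brain with 2.84 and 13.2 TPM of foxn2.L beside 7.90 and 5.76 TPM of foxn2.S. The difference between the copies was not tested. Each dataset rests on 1 female, so the frog cannot be told apart from its clutch or its dataset. This includes any difference in how the 2 datasets were prepared.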

How the data were processed

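Libraries were grouped by tissue and numbered by dataset, 1 for Taira and 2 for Ueno, per the labels. RNA of minced whole tissue was prepared with TRIzol and a column, and poly-A libraries without strand information were made for Illumina sequencing, per the labels' protocols. Reads from overlapping antisense genes therefore cannot be told apart. BWA 0.7.10 and RSEM 1.2.19 are listed in the submitters' processing notes. The authors deposited TPM per cDNA model, a share of each library that keeps no depth, so no count model was used. Models with at least 1 TPM in at least 2 of 28 libraries were kept (33317 of 45831). Values were log2(TPM + 1), fitted in R 4.3.3 by limma 3.58.1 using 14 tissue means, a variance trend and 14 residual degrees of freedom. Adjusted p-values are limma's with Benjamini-Hochberg adjustment over all tested models or pairs. Homeolog pairs were symbols occurring once with L and once with S (8017, of which 7749 were tested). The fits were tested on simulated data.

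The members and lists were chosen with earlier results of these data known. Gene lists covered oocyte, keratinocyte, skeletal muscle, erythrocyte, organ markers, and genes of motile cilia, mitosis, FoxO response, ionocyte, FoxA endoderm and liver, lens, vessel and mesenchyme, and regulatory T cell. Named members were, by rule, the 3 with the largest called difference per tissue whose libraries were both above all others, the highest model of each subfamily, up to 3 per direction in each organ pair, and the pairs with the most unequal or most variable ratio. Other members were named after their values were seen. Of the 72 models, 2 stand in the counts and are otherwise not reported here.

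According to the series design, equal numbers mark the same female in 13 tissues, and the numbers therefore pair the libraries. In the check of this, the Ueno minus Taira differences of 78 tissue pairs had a median Pearson's r across genes of 0.425, from -0.0138 to 0.723, with 74 above 0.1. The main fit had no block. Alternatives were pseudocounts of 0.1 and 5, no filter, median-of-ratios scaling, the frog as a block, the other tissues without the gonads, testis added to the frogs, 28 fits without 1 library each (the lone library that remains is assumed to vary like other tissues) and, chosen after seeing the data, kidney or ovary left out of the other tissues.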

Additional observations from a re-analysis of the deposited data

Results flagged for a closer look

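The log2 ratio of L to S differed between tissues, in limma's F test on the ratio itself, with a range of at least 2 between the tissue means in 8 forkhead pairs. Of all pairs 80.3% differed in that test. The share of all pairs with such a range was not computed, so the 8 cannot be called unusual. The range was 6.11 for foxn1 (skin against spleen), 3.56 for foxm1 (brain against ovary), 3.37 for foxq1 (spleen against stomach) and 3.06 for foxn4 (testis against spleen). It was 2.72 for foxo4 (spleen against pancreas), 2.40 for foxd2 (kidney against skin), 2.16 for foxj3 (brain against testis) and 2.11 for foxa2 (testis against brain). For foxo4 the S copy was near 0 in every tissue, so its ratio follows the level of the L copy. For foxn4, foxd2 and foxq1 one end of the range is a tissue in which neither copy reached 1 TPM and the added 1 TPM sets the ratio near 0.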

How the results depend on the processing

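Of 232 forkhead counts recomputed under 9 alternatives other than leaving out a library, 55 changed by more than 1.5 times, 43 of them under another pseudocount, which sets how far a low model can differ. With a pseudocount of 0.1 the counts of models called higher were 28 in brain, 3 in pancreas, 14 in stomach, 14 in testis and 23 in testis against ovary. The counts of lower models were 4 in eye, 11 in intestine, 22 in liver, 7 in lung, 32 in muscle, 31 in ovary, 13 in skin, 39 in pancreas, 7 in stomach and 20 in spleen, and 2 pairs had S above L. With a pseudocount of 5, brain had 10 higher models, kidney 10, intestine 5, testis 5, skin 4, eye 2, liver 2, muscle 0 and pancreas 0, with 7 in testis against ovary, 0 in eye against brain and 1 in intestine against stomach. The counts of lower models were then 0 in brain, eye, intestine, kidney, lung, skin and stomach, 2 in heart, 1 in liver, 3 in muscle, 3 in ovary, 6 in pancreas, 2 in spleen and 1 in testis, and 0 pairs had L above S. After median-of-ratios scaling the higher counts were 8 in liver, 4 in muscle, 4 in pancreas and 3 in spleen, and the lower counts 4 in eye, 3 in intestine, 5 in liver, 2 in pancreas and 1 in stomach. With the replicate block for the frog 7 models were higher in intestine than stomach, and this block changed no other count by more than 1.5 times. With other tissues that excluded the gonads 3 were lower in lung and 6 in stomach.

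Leaving out each library in turn gave counts of higher models of 7 to 17 in intestine, 3 to 5 in liver, 7 to 11 in lung, 0 to 3 in muscle, 4 to 7 in ovary, 0 to 1 in pancreas, 4 to 9 in skin, 2 to 8 in spleen and 5 to 10 in testis. Lower models were 1 to 2 in eye, 3 to 5 in intestine, 1 to 5 in kidney, 5 to 9 in liver, 1 to 3 in lung and 1 to 3 in stomach. Testis against ovary gave 9 to 16, stomach against intestine 2 to 5 and intestine against stomach 2 to 7. Of 531 values of 51 named results, 507 kept direction and call, 23 lost the call, and foxd2.L in intestine ranged from -0.24, reversed, without intestine replicate 1 to 4.21 without intestine replicate 2. Except where named above, the cause was not tested. TPM keeps no depth, so the precision of low models is unknown.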
